A study of Homo sapiens with 18 samples.

Results

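Panobinostat, a hydroxamate that inhibits histone deacetylases, was given alone to U937 cells, and these cells were compared with control cells of the same line. The comparison rests on 3 panobinostat arrays and 3 control arrays, which are 6 of the 18 arrays in the study. It covers every gene with a probe set that maps to 1 gene symbol, which gave 14884 genes, 11916 of them protein coding. U937 is an established human line of monocytic leukaemia type, grown from a histiocytic lymphoma. Per the labels, the inhibitor was present for 24 h, and the panobinostat label carries the number 8 with no unit. The labels do not say what the control cells received, or what either group received in place of the decitabine described below. Nor do they say whether replicates came from separate cultures. The p-values therefore measure the spread between arrays within groups, pooled over all 18 arrays, and that spread may be technical. The remaining arrays, used below where they give an independent or contrasting reading, were cells given 3 pulses of 24 h of the DNA methylation inhibitor decitabine, which the labels call 5-aza-2´-deoxycytidine (label number 50), cells given decitabine plus panobinostat, and cells given valproic acid (label number 1) for 24 h. The remaining group, decitabine plus valproic acid, entered only the shared estimate of the spread.

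Histone deacetylases remove acetyl groups from lysines of histones and other proteins, and usually work inside corepressor complexes that keep genes quiet. Histone acetyltransferases add these groups, and bromodomain proteins read them. An inhibitor such as panobinostat raises acetylation across the genome within hours, and transcripts then move in both directions. In myeloid leukaemia lines the class is known for arresting growth and for switching on parts of mature myeloid programs.

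The median log2 signal of the 18 arrays lay between 3.81 and 3.87. The deposited values come from RMA, which brings all arrays to 1 distribution. The close medians therefore follow from the normalization and do not show that the arrays or the RNA were alike. The correlation between 2 arrays of 1 group ran from 0.9897 to 0.992 over 6 pairs, and between a control and a panobinostat array from 0.9802 to 0.9843 over 9 pairs. CD14, a receptor of mature monocytes, was near the bottom of the signal range on all 6 arrays (3.38 to 3.57), and CD68, a lysosomal protein of the monocyte lineage, lay between 7.21 and 7.63. MPO, the peroxidase of immature myeloid cells, was between 12.23 and 12.31 on the control arrays. Markers of epithelium were low, as EPCAM between 3.57 and 3.82 shows.

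With panobinostat 1100 of the 14884 genes, or 7.39%, had an adjusted p under 0.05 (limma, Benjamini-Hochberg over all genes) and are said below to be called. Of these, 583 were higher (3.92% of genes) and 517 lower (3.47%). The counts called in gene lists below are to be read against these shares. By at least 2-fold 225 genes were higher (1.51%) and 87 lower (0.585%). At that size rises were more numerous than falls. When each array was centred on its median, 508 genes were higher and 753 lower, so that the share of rises among the calls was 40.3% in place of 53%. The median change of all genes was -0.02 as deposited and -0.08 after centring, in log2 units. Without control 3 the total was 659, with 256 lower genes, and without panobinostat 3 the number of lower genes was 328. The plot of change against signal shows the larger number of strong rises.

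**Figure D1:**
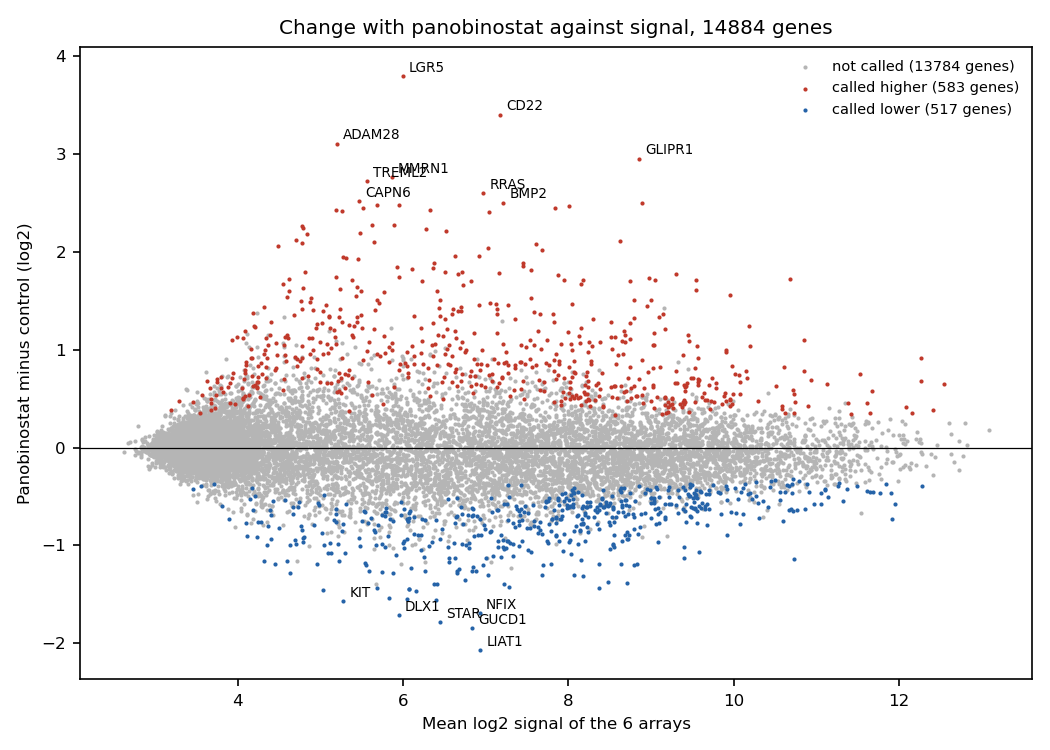
Each point is 1 of 14884 genes, with the mean log2 signal of the 6 arrays on the x axis and the log2 change (panobinostat minus control) on the y axis. Red points are the 583 genes called higher and blue points the 517 called lower; rises reach 3.80 (LGR5), while the largest fall is -2.07 (LIAT1).

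For 3645 genes, 24.5% of those tested, the 3 panobinostat arrays lay all above or all below the 3 controls. Among the 1100 called genes 1092 did so.

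Values in the text are log2 signals, and a change is the panobinostat mean minus the control mean in log2 units, with its standard error from the fit. LGR5, a receptor for R-spondins that marks epithelial stem cells, read 3.71, 3.82 and 4.76 on the control arrays and 7.76, 8.04 and 7.89 on the panobinostat arrays. LGR5 rose by 3.80 ± 0.24 (13.9-fold, adjusted p = 2.12e-07), the largest change of all called genes. CD22, a sialic acid-binding receptor of B cells, went from 5.24, 5.56 and 5.62 to 8.80, 8.86 and 8.97, which is 10.6-fold (3.40 ± 0.27, adjusted p = 7.68e-07). ADAM28, a membrane metalloprotease, had 3.66, 3.69 and 3.57 in controls and 6.61, 7.02 and 6.62 with panobinostat (8.62-fold). In all 3 genes the groups were far apart, although control 3 of LGR5 lay well above controls 1 and 2.

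The other leading rises came from several kinds of protein. GLIPR1, a member of the cysteine-rich secretory protein family, read 7.74, 7.25 and 7.16 on the control arrays and reached 10.23, 10.53 and 10.24, a 7.75-fold rise. MMRN1, the multimerin of platelets and endothelium, moved from between 4.38 and 4.59 to between 6.97 and 7.43. TREML2, a receptor of the TREM family, rose 6.62-fold and RRAS, a small GTPase of the RAS family, 6.07-fold. BMP2, a secreted morphogen, went from 6.04, 5.77 and 6.07 to 8.65, 8.70 and 8.06 (5.67-fold, adjusted p = 5.69e-07). TLR6, which pairs with TLR2 to sense bacterial lipopeptides, was at 4.63, 4.05 and 4.66 without and 6.58, 6.93 and 7.25 with panobinostat. Transcripts better known from other tissues were among them as well. KRT9, a keratin of palm and sole skin, rose 5.47-fold, CAPN6, a calpain without protease activity, 5.75-fold, and ROPN1L, a protein of the sperm flagellum, 5.36-fold. TXLNB, a taxilin of muscle, rose 5.54-fold with the smallest adjusted p of the 20 leading rises (6.17e-08). GPR174, a receptor for lysophosphatidylserine, had a change of 2.42. Its call was lost when control 2, control 3, panobinostat 2 or panobinostat 3 was left out (limma adjusted p 0.0533 to 0.0734). The change stayed between 2.31 and 2.44 in these fits. Its SD was 0.19 in controls and 0.20 with panobinostat. In groups that enter the shared spread it was 1.09 (decitabine), 1.05 (decitabine plus panobinostat) and 0.98 (valproic acid). The other members of the 20 leading rises, GRAMD1C, REPS2, STEAP4, SLFN5, SLAMF6 and STX11, had changes between 2.27 and 2.48.

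**Figure D2:**
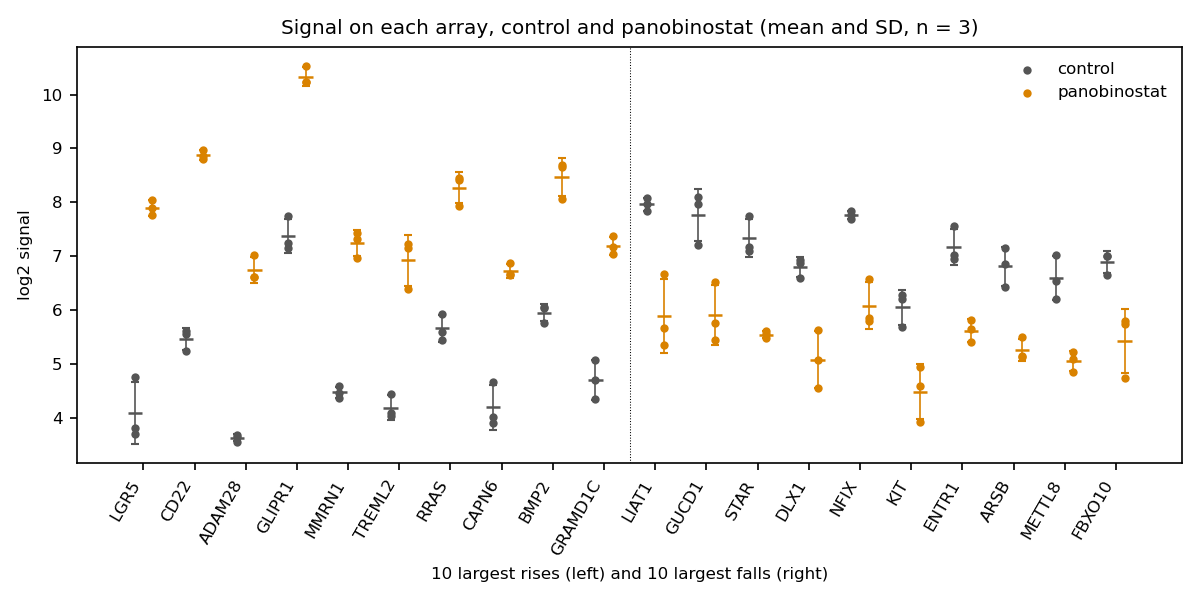
Log2 signal on each of the 3 control arrays (grey) and 3 panobinostat arrays (orange) for the 10 largest rises and 10 largest falls among called protein-coding genes; horizontal lines are means and bars are SDs (n = 3). No gene shown has overlapping groups, as the naming rule requires.

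The largest fall was smaller in size than each of the 20 leading rises and came from LIAT1, a protein that binds the arginyltransferase ATE1. Its controls were at 7.85, 7.97 and 8.09 and its panobinostat arrays at 6.67, 5.68 and 5.35, a 4.21-fold fall (adjusted p = 0.00142). A second LIAT1 probe set had a change of -0.03 (adjusted p = 0.942), so the fall was seen by 1 of its 2 probe sets. Values of a second probe set, here and below, come from a limma fit of every probe set. STAR, which carries cholesterol into mitochondria for steroid synthesis, fell 3.44-fold, from 7.10, 7.17 and 7.74 to 5.62, 5.56 and 5.48. Of the transcription factors DLX1, a homeobox factor, fell 3.28-fold, NFIX, a nuclear factor I protein, 3.22-fold, and ZNF32, a zinc finger protein, 2.7-fold. KIT, the receptor of stem cell factor, fell from 6.28, 6.21 and 5.69 to 4.60, 3.94 and 4.95 (2.96-fold, adjusted p = 0.00583). FASN, the fatty acid synthase, had 9.04, 9.20 and 9.03 against 7.57, 7.76 and 7.64, and fell 2.7-fold (adjusted p = 1.1e-05). ARSB, a lysosomal sulfatase, fell 2.92-fold, METTL8, a methyltransferase of mitochondrial tRNA, 2.89-fold, and QTRT1, which builds queuine into tRNA, 2.73-fold. GUCD1 fell by 1.84 on the log2 scale, but its call was lost without control 1, control 3, panobinostat 2 or panobinostat 3 (adjusted p 0.0863 to 0.122). ENTR1 lost its call without control 3 (adjusted p = 0.0576), and DENND2D without control 3 or panobinostat 2 (0.0939 and 0.0635).

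Of the 18 deacetylase genes measured, 2 were called higher and 1 lower, against 7.39% of all genes called. The list holds the zinc-dependent enzymes that hydroxamates inhibit and also the sirtuins, which depend on NAD and are another class. Over the list the median change was 0.07 against -0.02 over all genes. HDAC9, a class IIa enzyme, went from 5.09, 5.14 and 4.78 to 6.76, 7.07 and 6.72, a 3.6-fold rise (adjusted p = 0.000432). HDAC5, of the same class, was 1.6-fold higher, at 7.23, 7.59 and 7.41 against 6.97, 6.55 and 6.68. Its call was lost without control 2 or 3 or panobinostat 2 or 3 (adjusted p 0.0721 to 0.108). HDAC4, also of class IIa, was called lower (-0.92 ± 0.21), but its call was lost without control 2, panobinostat 1 or panobinostat 3, and a second HDAC4 probe set had a change of -0.14 (adjusted p = 0.519). Among the class I enzymes HDAC1 had a change of 0.06 (adjusted p = 0.826), HDAC3 by 0.07 (0.867) and HDAC8 by 0.19 (0.61). HDAC2 had a change of -0.31 on the probe set used (adjusted p = 0.453), while its other probe set was called at -0.47 (adjusted p = 0.0056). HDAC6, HDAC7, HDAC10 and HDAC11 had changes between -0.21 and 0.46, none of them called.

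Of 19 measured acetyltransferases and bromodomain readers none was called higher and 3 were called lower, with a median change of -0.20. JADE2, a scaffold of the HBO1 acetyltransferase complex, fell from 7.96, 7.98 and 8.04 to 6.95, 6.12 and 6.63 (2.69-fold, adjusted p = 0.000286). KAT2A, the GCN5 acetyltransferase, fell from 8.65, 8.55 and 9.0 to 7.56, 7.78 and 7.41 (2.22-fold, adjusted p = 0.00018). For both genes the groups did not overlap. KAT14 was called at -0.58, but not when control 1, control 2, panobinostat 1 or panobinostat 2 was left out. In the 26 measured genes of deacetylase corepressor complexes, CHD3, the motor of a NuRD complex, fell 1.92-fold (adjusted p = 0.00267). RCOR1 and PHF21A, both parts of a CoREST complex, were called higher by 0.45 and 0.64. Neither call held without control 3 (0.07 and 0.128) or panobinostat 2 (0.0861 and 0.114), and that of RCOR1 also ended without control 1, control 2 or panobinostat 3.

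Of 13 measured genes that other studies know as responders to deacetylase inhibitors, 3 were called higher and none lower, with a median change of 0.42. GSN, the actin-severing protein gelsolin, rose 3.79-fold from 4.03, 4.89 and 4.54 to 6.30, 6.37 and 6.57. SAT1, which acetylates polyamines, went from 7.36, 7.36 and 7.39 to 8.34, 8.31 and 8.34 (1.94-fold, adjusted p = 0.00878). KLF6, a zinc finger factor, was called at 0.53, but the call held only without panobinostat 1 among the 6 arrays left out. DHRS2, a short-chain dehydrogenase, had 3.61, 3.86 and 3.89 in controls and 4.72, 5.00 and 5.10 with panobinostat. These groups did not overlap, but the gene did not pass the test (1.15 ± 0.43, adjusted p = 0.134). In a limma fit of the 6 compared arrays alone DHRS2 passed, with an adjusted p of 0.00378. It was called in none of the 6 fits with 1 array left out. CLU, TXNIP, KLF4, RECK, THBS1 and RHOB had changes between 0.10 and 0.56 and were not called, and MICA, MICB and KLF2 lay between -0.21 and -0.06, not called either.

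Some markers of monocytes and macrophages rose. Of 23 measured, 8 were called higher (7 without panobinostat 1) and 1 lower, and the median change was 0.13. CSF1R, the receptor for macrophage colony-stimulating factor, went from 4.66, 4.20 and 4.15 to 6.59, 5.93 and 6.31, a 3.84-fold rise. CD86, a costimulatory ligand, rose 3.34-fold from 5.01, 5.50 and 4.74 to 6.75, 6.91 and 6.81. LYZ, lysozyme, rose 3.27-fold on the probe set used and by 0.65 on its other probe set (adjusted p = 0.0124). CX3CR1, the fractalkine receptor, rose 2.74-fold, S100A9, a subunit of calprotectin, 2.63-fold, and CD36, a scavenger receptor, 2.33-fold. All 6 kept their calls whichever of the 6 arrays was left out. TREM1 and the adaptor TYROBP, named here after their values were seen, were higher by 1.12 and 0.78, and TREM2 was lower by 0.73. The call of TREM2 was kept only when control 2 was left out. CD14 and CD68, also named after their values were seen, had changes of -0.04 and -0.18 (adjusted p = 0.898 and 0.758).

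Of 18 measured granulocyte genes none was called higher and 3 were called lower, against 3.92% and 3.47% of all genes. CSF3R, the receptor for granulocyte colony-stimulating factor, fell from 6.98, 7.46 and 7.48 to 6.22, 6.54 and 6.09 (2.04-fold, adjusted p = 0.00759). MPO fell from 12.31, 12.23 and 12.30 to 11.48, 11.60 and 11.57 (1.66-fold). AZU1, the granule protein azurocidin, was called at -0.73, but only panobinostat 1 could be left out without losing the call. Among 17 measured stem and progenitor genes 3 were called higher and 1 lower. CD34, a sialomucin of progenitors, rose 3.35-fold (from 4.49, 4.16 and 4.31 to 6.42, 6.26 and 5.50), ANGPT1, a ligand of the TIE2 receptor, 3.25-fold and the transcription factor MYB 1.57-fold, while KIT fell as described above. MYB was also the single called gene of 14 measured myeloid transcription factors.

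Lists of markers of other cell types also had calls, which are to be read against 3.92% of all genes called higher. Of 17 measured B cell markers CD22, the scaffold BANK1 (2.34-fold) and CD24 were higher. CD24 lost its call without control 1, control 3 or panobinostat 1. Of 17 measured T and NK cell markers PRF1, perforin, was higher at 5.13, 4.84 and 5.14 against 3.81, 3.48 and 3.53, and so was IL7R, the interleukin 7 receptor (2.76-fold). Of 19 measured epithelial and stromal markers 4 were higher. These were VIM, the intermediate filament vimentin, at 8.39, 8.46 and 8.36 against 6.71, 6.65 and 6.17, TSPAN8, a tetraspanin (2.9-fold), DSC3, a desmosomal cadherin (2.59-fold), and FN1, fibronectin, whose call at 0.54 ended whichever array was left out. The other VIM probe sets gave 0.98 (adjusted p = 0.00329) and 0.60 (0.319). The control signal of VIM already lay well above the list's median of 3.68, so VIM is not read here as a marker of other cells. The mean signal of the 17 B cell markers was 4.003 to 4.052 on the control arrays and 4.23 to 4.42 with panobinostat. That of the 19 epithelial and stromal markers was 3.86 to 3.92 and 4.16 to 4.21. These means include CD22 and VIM, with changes of 3.40 and 1.89. The median changes of the lists were 0.047 and 0.046, and 8 of the 17 and 9 of the 19 lay below 0, so neither list rose as a whole. Whether a few cells of another kind or many cells with a little more transcript gave these values cannot be told apart in bulk RNA. Of 10 measured erythroid and megakaryocyte genes EPOR was called at 0.71, with no call without control 1, control 3, panobinostat 2 or panobinostat 3. Of 29 measured neuronal genes SYN1 was called at 0.64 and SCG5 at -0.56. SCG5 kept its call only without control 3. Of 18 measured cancer-testis and germline genes PRAME was called at 0.79 and GCNA at -0.90. PRAME lost its call without control 3 or any 1 of the panobinostat arrays, and GCNA without control 2.

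Of 41 measured integrins, tetraspanins and SLAM-type adhesion genes 8 were called higher and none lower, with a median of 0.13. CD53, a tetraspanin of leukocytes, had 8.30, 8.38 and 8.56 without and 10.20, 10.21 and 10.16 with panobinostat, a 3.43-fold rise (adjusted p = 3.85e-07). SLAMF6 went from 4.92, 4.63 and 4.71 to 7.09, 7.05 and 6.96 (4.84-fold), and SLAMF1 from 3.22, 3.87 and 3.27 to 4.96, 6.05 and 5.54 (4.18-fold). SLAMF7 rose 2.01-fold. These 3 receptors lie in 1 gene family on chromosome 1. Its other members SLAMF8 (-0.09), CD84 (0.21) and CD48 (0.53), named after their values were seen, were not called. CD82, a tetraspanin, was higher by 1.49, a call that ended without control 3 or panobinostat 1, where 6 of the list were called higher. Without panobinostat 2, and again without panobinostat 3, 1 gene of the list was called lower. TSPAN7 and ICAM2, named after their values were seen, were higher by 0.85 and 0.88. Of 18 measured Siglecs, Fc receptors and lectins CD22 and SIGLEC15 were called, both higher, SIGLEC15 from 6.15, 5.89 and 5.76 to 7.89, 7.86 and 7.94.

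Enzymes and receptors of lipid mediators moved in both directions. Of 33 measured 7 were called higher and 3 lower. Among the enzymes PTGS2, the inducible cyclooxygenase that starts prostaglandin synthesis, rose 3.86-fold from 4.25, 4.37 and 4.26 to 6.10, 6.33 and 6.30. ENPP2, the secreted enzyme autotaxin that makes lysophosphatidic acid, rose 4.75-fold from 3.76, 3.69 and 3.53 to 5.62, 6.24 and 5.87. Among the receptors GPR34, which binds lysophosphatidylserine, rose 3.28-fold and PTGER4, a receptor for prostaglandin E2, 2.09-fold. PTGFR, the receptor for prostaglandin F2-alpha, was called at 0.88, and only panobinostat 2 could be left out without losing that call. SPHK1, which makes sphingosine 1-phosphate, fell 1.93-fold (adjusted p = 0.00387). PTGES2 (-0.71) and S1PR4 (-0.66) were also lower, and LPAR1 (0.86) and ALOX5AP (0.58) higher, these 4 named after their values were seen. With an array left out the list had 5 or 6 genes called higher and 2 or 3 called lower.

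Type I interferon response genes had 7 of 32 measured members called higher and 1 lower, with a median of 0.28. SLFN5, a schlafen protein, rose 5.31-fold from 6.03, 6.60 and 4.89 to 8.19, 8.41 and 8.15. SAMD9L rose 2.57-fold, IFI44 2.16-fold and IFIT3, which binds foreign RNA ends, 1.72-fold. HERC5, the ligase for ISG15, was higher by 0.89 and lost its call without control 3, panobinostat 2 or panobinostat 3. USP18, which removes ISG15, was called lower by 0.77 although 1 panobinostat array (8.33) lay above the lowest control (8.24). Its call ended without control 2, control 3, panobinostat 1 or panobinostat 3. Of 27 measured NF-kB, cytokine and chemokine genes CCL1, a T cell and monocyte chemokine, rose 3.07-fold and IL18, an inflammasome cytokine, 2.58-fold. Of 5 measured MHC presentation genes 1, TAPBP, was called, at -0.49, and the call held only without panobinostat 2.

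Lysosomal and redox genes had smaller rises. Of 26 measured lysosome genes 5 were called higher and 1 lower. GRN, progranulin, rose from 8.89, 8.79 and 8.96 to 9.93, 10.11 and 10.04 (2.22-fold, adjusted p = 0.0037). PSAP, the precursor of the saposins, rose 1.67-fold, IDS, iduronate sulfatase, 1.7-fold and TFE3, a transcription factor for lysosome genes, 1.54-fold. CTSD, cathepsin D, was called at 0.46, but not without control 1, control 2, panobinostat 2 or panobinostat 3. The number of higher lysosome genes was 3 without panobinostat 2, where IDS also lost its call. ARSB was the lower one. Of 18 measured phagocyte oxidase and redox genes 3 were called higher and none lower, also whichever array was left out. PRDX1, a peroxiredoxin, rose 2.11-fold, HMOX1, haem oxygenase, 1.89-fold and CAT, catalase, 1.69-fold. Of 11 measured metallothioneins MT1X rose 1.57-fold (adjusted p = 0.00346), and MT1F was called at 0.67, but not without control 1, control 2, panobinostat 2 or panobinostat 3. NCF1B and NCF1C, pseudogenes of the oxidase gene NCF1, were higher by 1.84 and 1.81 (both named after their values were seen). NCF1B lost its call without control 1, control 3, panobinostat 1 or panobinostat 3. Their sequences are nearly identical to NCF1, so the probe sets cannot be assigned with certainty to a copy.

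Among the 41 gene lists, the enzymes that charge tRNAs with amino acids had the highest share of members called lower. Of 17 measured cytoplasmic aminoacyl-tRNA synthetases 11 were called lower and none higher, against 3.47% of all genes called lower, and their median change was -0.42 against -0.02 over all genes. Their mean signal was 10.03 to 10.26 on the control arrays and 9.59 to 9.75 on the panobinostat arrays. Genes of strong signal were called lower more often than all genes. The share was 8.99% from 8 to 10 on the decitabine arrays and 8.15% at 10 or more. AARS1, for alanine, went from 10.33, 10.49 and 10.56 to 9.60, 9.81 and 9.65 (1.71-fold, adjusted p = 0.00031). MARS1, for methionine, fell 1.69-fold, IARS1, for isoleucine, 1.56-fold, YARS1, for tyrosine, 1.55-fold, and EPRS1, for glutamate and proline, 1.45-fold. These 5 kept their calls whichever array was left out. CARS1, for cysteine, had the largest change (-0.95 ± 0.23) and lost its call without control 3 or panobinostat 2 (adjusted p = 0.0783 and 0.0652). GARS1, KARS1, LARS1, NARS1 and TARS1, the other called members, named after their values were seen, were lower by 0.36 to 0.44. Without control 3 the number called was 6 and the median -0.38.

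The neighbouring pathway that makes serine, one-carbon units and other amino acids had 5 of 13 measured members called lower and none higher, with a median of -0.33. PSAT1, the aminotransferase of serine synthesis, stood at 11.28, 11.21 and 11.40 in controls and 10.11, 10.17 and 10.19 with panobinostat (2.2-fold, adjusted p = 7.92e-06). CTH, which makes cysteine from cystathionine, fell 2.63-fold and MTHFD1L, a mitochondrial folate enzyme, 2.62-fold. For these 3 the call held whichever array was left out. ASNS, asparagine synthetase, was lower by 0.79 and lost its call without control 2, panobinostat 1 or panobinostat 3 (adjusted p 0.0564 to 0.0871), and PSPH, the last enzyme of serine synthesis, was called at -0.56, but not without control 2, control 3, panobinostat 1 or panobinostat 2. The number called was 3 without control 2 or without panobinostat 1. ATF5, a stress-induced factor of the ATF4 family, fell 2.74-fold from 6.04, 5.25 and 5.97 to 4.25, 4.43 and 4.22. In the list of 19 measured unfolded protein and integrated stress response genes it was called lower with VLDLR (1.94-fold). ATF3 was called higher there at 0.63, and that call held only without panobinostat 1. ASS1, which makes argininosuccinate and was named after its values were seen, fell 2.55-fold.

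A known motif was searched for in the promoters of these enzymes. The CARE, the element that C/EBP and ATF4 proteins bind when amino acids are short, was searched as TGATGNAA on both strands, from 250 bases before to 50 bases after each RefSeq start (GRCh38.p14), a search chosen after the falls were seen. It occurred in 2.12% of the 9707 protein-coding promoters in the table. Among promoters of all lower genes the share was 3.37%, and among those of higher genes 1.85%. Of the 14 synthetases with an entry 6 had it, and all 6 were called lower. Of 9 entries of the serine, folate and amino acid list 2 had it, ASNS and MTHFD1L. The windows below are written 5′ to 3′ along the gene, with the motif in capitals in either orientation. They were chosen because they hold the motif, and show its orientation and the bases around it.

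AARS1, chr16:70289660-70289719, minus strand: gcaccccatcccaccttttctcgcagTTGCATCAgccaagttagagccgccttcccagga

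CARS1, chr11:3057392-3057451, minus strand: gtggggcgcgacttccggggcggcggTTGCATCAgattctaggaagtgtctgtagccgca

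IARS1, chr9:92293677-92293736, minus strand: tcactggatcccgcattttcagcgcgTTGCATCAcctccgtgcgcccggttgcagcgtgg

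MARS1, chr12:57488038-57488097, plus strand: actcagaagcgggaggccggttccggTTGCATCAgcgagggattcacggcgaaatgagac

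NARS1, chr18:57621789-57621848, minus strand: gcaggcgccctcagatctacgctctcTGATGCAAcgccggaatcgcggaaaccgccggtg

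TARS1, chr5:33440941-33441000, plus strand: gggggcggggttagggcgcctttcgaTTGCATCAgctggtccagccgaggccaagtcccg

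ASNS, chr7:97872443-97872502, minus strand: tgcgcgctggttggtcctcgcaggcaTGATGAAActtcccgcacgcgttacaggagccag

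MTHFD1L, chr6:150866331-150866390, plus strand: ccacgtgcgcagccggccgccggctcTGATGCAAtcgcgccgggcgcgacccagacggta

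A match is a description of letters and not of binding. Among the called synthetases EPRS1, GARS1 and KARS1 had an entry without the motif, and so did CTH and PSAT1 on the other list.

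Ribosome biogenesis genes process and assemble ribosomal RNA in the nucleolus. Of 33 measured 14 were called lower and none higher, 32 of the 33 had a change below 0, and the median was -0.57. Their median control signal was 9.155, and of all genes from 8 to 10 on the decitabine arrays 8.99% were lower. RRP12, an export factor of pre-ribosomes, went from 8.44, 8.70 and 9.07 to 7.88, 7.93 and 8.06 (1.72-fold, adjusted p = 0.00939). NOB1, the nuclease that finishes 18S RNA, fell 1.78-fold, and MYBBP1A, a nucleolar protein, 1.94-fold. NHP2, a box H/ACA protein, had 8.42, 8.36 and 8.38 in controls and 7.49, 7.10 and 7.0 with panobinostat (-1.19 ± 0.31), and its call held only without panobinostat 1, as did that of LYAR (-0.89). NOB1 lost its call without control 3, panobinostat 2 or panobinostat 3, MYBBP1A without control 3, panobinostat 1 or panobinostat 3, and RRP12 without control 3. Without control 3 none of the 33 was called, at a median of -0.48, while 21 had an unadjusted p under 0.05. Without panobinostat 3 the number was 3, without control 1 it was 8, without control 2 it was 10, and without panobinostat 1 or 2 it was 7. Of the 26 with a promoter entry 9 held the E-box CACGTG, the site of MYC and related factors, against 9.1% of all promoters. Among promoters of all lower genes the share was 15.1%. Of these 9, BYSL, MRTO4, MYBBP1A, NOC3L and NOP14 were called lower, and FBL, NOP2, RCL1 and WDR43 were not called. NHP2, LYAR, TBL3, NOB1, DDX21, HEATR1 and NIP7 were called lower with an entry that lacks the E-box. MYC itself read 10.74, 10.61 and 10.79 on the control arrays and 9.99, 9.85 and 10.18 with panobinostat. These groups did not overlap, but MYC did not pass the test (-0.71 ± 0.22, adjusted p = 0.0617). It passed in 4 of the 8 alternatives apart from leaving out an array. The limma adjusted p was 0.0162 on the compared arrays only and 0.037 with a mean signal of at least 5. After centring it was 0.0451, and in a trended, robust fit 0.0245. MYC was called in none of the 6 fits with 1 array left out. In the MYC network, 14 measured, 1 gene was called: ODC1, the first enzyme of polyamine synthesis, lower 1.49-fold (12.17, 12.12 and 12.42 against 11.60, 11.70 and 11.67).

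Other growth-related lists had fewer calls, to be read against 3.47% of all genes called lower. Of genes from 8 to 10 on the decitabine arrays 8.99% were lower, and of those at 10 or more 8.15%. Of 25 measured ribosomal protein genes 4 were lower (median -0.17). RPL6 fell 2.13-fold and RPS14 1.98-fold. RPL14 and RPL30 were called at -1.31 and -1.01 and lost their calls without control 2, control 3 or panobinostat 3, which left 2 called, and RPL30 also without panobinostat 1 or 2. Ribosomal protein genes have many processed copies, so their probe sets may read more than 1 locus. Of 17 measured heat shock and mitochondrial chaperone genes 4 were lower. HSPD1, the mitochondrial chaperonin, fell 2.19-fold from 9.79, 10.07 and 10.06 to 9.01, 8.87 and 8.63 and TRAP1, a mitochondrial relative of HSP90, 1.68-fold. The calls of HSPH1 (-0.54) and HSPA9 (-0.39) ended without control 3 or panobinostat 1, which left 2 called. That of HSPH1 ended without panobinostat 2 as well, and that of HSPA9 without control 2 or panobinostat 3. Of 24 measured nucleotide synthesis genes PFAS, CTPS1 and ATIC were lower by 0.46 to 0.71. None of the 24 was called when control 2, control 3 or any 1 panobinostat array was left out (6 to 10 had a change below 0 with an unadjusted p under 0.05 in these limma fits). PFAS lost its call without control 1 as well, so its call ended whichever array was left out. Of 21 measured DNA replication genes MCM4 (-0.50) and CDC45 (-0.52) were lower, with 0 called without control 1, control 3 or panobinostat 1 (5 to 7 had a change below 0 with an unadjusted p under 0.05 in these limma fits). Cell cycle lists had few calls. ESPL1 (-0.63) was the called gene of 31 measured for G2 and mitosis, and CCNE1 (-0.56) that of 19 measured for G1. ESPL1 kept its call only without panobinostat 2, and CCNE1 only without control 2 or panobinostat 3. BCL2A1, an antiapoptotic BCL2 relative, rose 2.28-fold and was the called gene among 22 measured of the BCL2 family and death receptors.

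Most measured genes of the metabolic, reference and WNT lists were not called, beside 3.92% of all genes called higher and 3.47% called lower. GPI, a glycolytic isomerase, fell 1.55-fold and GAPDH was called at -0.61, a call lost whichever array was left out, among 10 measured glycolysis genes. CYC1, cytochrome c1, fell 1.72-fold and UQCRC2 was lower by 0.37 (not called without control 1, control 2 or panobinostat 2) among 12 measured respiratory chain genes. MVK, mevalonate kinase, was called at -0.62 with overlapping groups, lost its call without control 1, control 2, panobinostat 1 or panobinostat 2, and was with STAR 1 of the 2 called of 25 measured cholesterol and steroid genes. SREBF1, a regulator of lipid synthesis named after its values were seen, had -0.80 ± 0.31 and was not called. In the list of 10 measured housekeeping genes PPIA, cyclophilin A, fell 2.09-fold from 10.18, 10.33 and 9.84 to 9.66, 8.85 and 8.66, and lost its call without panobinostat 3. GPI and GAPDH are also on that list, and CHMP2A rose 1.43-fold. SFRP4, a secreted WNT antagonist, was called at 1.08 and was with LGR5 the other called gene of 37 in the R-spondin and WNT list. It lost its call without control 1, control 3 or panobinostat 2. The 1 measured member of the linker and replication-independent histone list was not called (0.04).

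**Figure D3:**
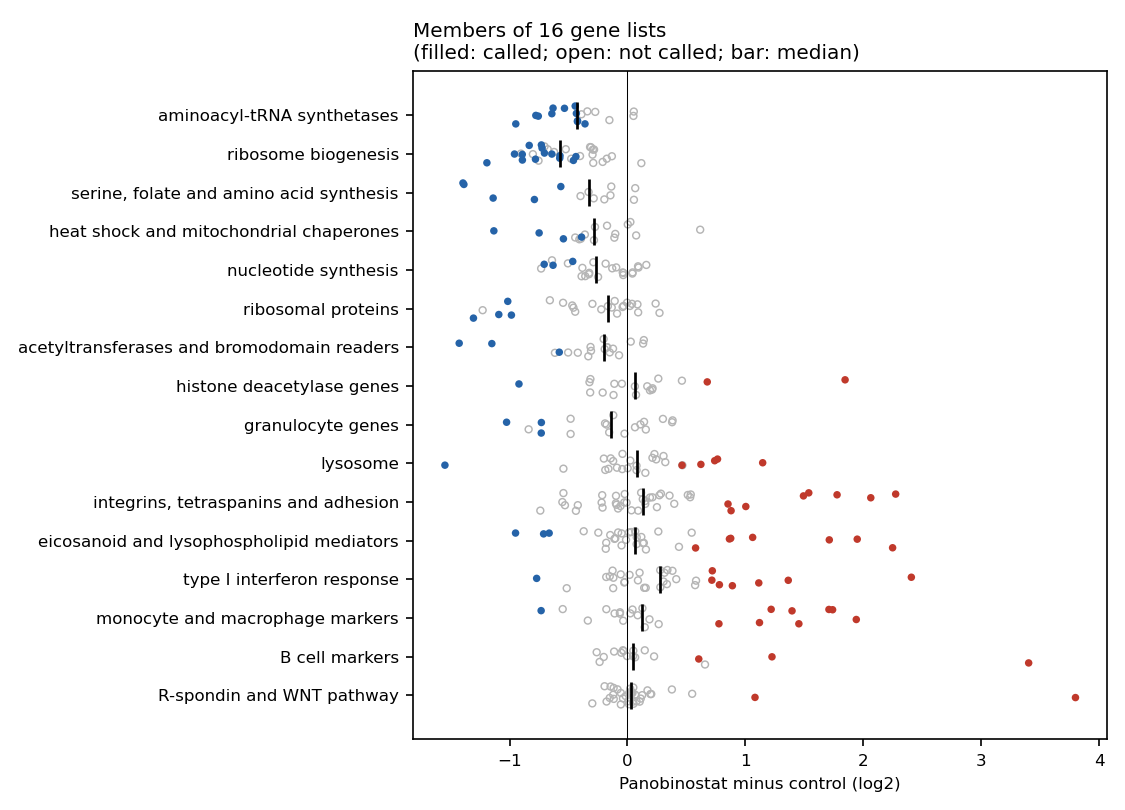
Log2 change (panobinostat minus control) of every measured member of 16 gene lists, with called members filled (red higher, blue lower), others open, and the list median as a bar. The synthetase and ribosome biogenesis medians are -0.42 and -0.57, while the B cell and WNT lists have 3 and 2 members called higher, the largest being CD22 and LGR5, beside medians of 0.05 and 0.03 (-0.01 and -0.03 after centring).

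Of 1398 long non-coding RNAs 36 were called higher and 18 lower, which is 3.86%. The share was 0.84% of 1072 miRNA genes and 8.57% of protein-coding genes, and no test of this difference was made. Named after their values were seen, LINC00974 rose 4.28-fold, AFF1-AS1 3.54-fold and LPP-AS2 2.58-fold. Among hosts of small nucleolar RNAs DANCR fell 2.4-fold (7.22, 7.27 and 7.39 against 6.21, 5.72 and 6.14), SNHG8 2.05-fold and EPB41L4A-AS1 2.27-fold, the last with no call without control 3, panobinostat 2 or panobinostat 3. The pseudogenes NBEAP1 and ANXA2P2 were higher by 2.50 and 1.61. ANXA2P2 closely resembles ANXA2, and its probe set may read the parent gene.

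Among 9 called miRNA genes, 3 higher and 6 lower, MIR33B, which lies in an intron of SREBF1, went from 4.95, 5.37 and 5.48 to 3.73, 4.45 and 3.78 (2.43-fold lower, adjusted p = 0.00789). MIR29A was called at -0.66, but not without control 1, control 3, panobinostat 1 or panobinostat 3. A probe set of a miRNA gene on this array does not separate the arms or the mature form from its precursor. The mature sequences below, from RefSeq (GRCh38.p14), carry the seed (bases 2 to 8) in capitals and show that the 4 arms have 4 different seeds.

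hsa-miR-33b-5p: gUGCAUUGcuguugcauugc

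hsa-miR-33b-3p: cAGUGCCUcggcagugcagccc

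hsa-miR-29a-3p: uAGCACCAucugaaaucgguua

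hsa-miR-29a-5p: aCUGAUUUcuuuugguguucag

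Called genes also sat beside each other in places. Runs of at least 3 genes that are next to each other among those tested and called in 1 direction were found at 4 places, looked for after the calls were known. On chromosome 12 RAB3IP, TSPAN8, LGR5 and TMEM19 were all higher, by 0.82, 1.54, 3.80 and 0.78. On chromosome 6 MAP7 (1.67), MAP3K5 (0.55), PEX7 (0.71) and IFNGR1 (0.97) were higher. RAB3IP lost its call without control 1, control 2 or panobinostat 1, PEX7 without control 1, control 2 or panobinostat 3, and IFNGR1 without control 3, panobinostat 1 or panobinostat 3. The runs of lower genes were COG8, NIP7 and TMED6 on chromosome 16 and ADI1, RNASEH1 and RNASEH1-DT on chromosome 2. Over all genes 3.92% were higher and 3.47% lower. Chromosome 16 had 11 higher (1.81%) and 34 lower genes (5.58%) of 609. Other chromosomes leaned the same way, with 3.39% higher and 5.43% lower on chromosome 17, 1.41% and 4.69% on 21, and 1.47% and 4.41% on 22. Chromosome 6 had 50 higher (6.58%) and 28 lower (3.68%) of 760, and chromosome 4 had 5.56% and 2.61%. These shares were not tested.

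The signal of the called genes was read from arrays of a group outside the comparison. Genes were binned by their mean on the 3 decitabine arrays. Signal also depends on the probes of each gene, so the bins are of signal and not of transcript number. Of 6121 genes under 4 there, 51 were higher and 7 lower with panobinostat. From 4 to 6 there were 155 higher and 81 lower of 3094, from 8 to 10 the counts were 177 and 209 of 2325, and at 10 or more 37 and 64 of 785. The median signal on the decitabine arrays was 6.998 for higher genes, 8.15 for lower genes and 4.33 for genes not called. For changes of at least 2-fold it was 6.28 for higher and 7.02 for lower genes.

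The promoters of the called genes are described here by their base composition, with no test. The shares over all promoters include those of genes with weak signal. The median signal on the decitabine arrays was 8.15 for lower genes and 4.33 for genes not called. No background of like signal was used, here or for the motifs, so a part played by signal in these shares was not tested. The CpG ratio compares the CG dinucleotides found with the number that the C and G content would give by chance, and promoters outside CpG islands have low ratios. A ratio under 0.4 was found in 20.8% of the 9707 promoters, in 25.9% of those of higher genes, in 39.5% of those of genes higher by at least 2-fold, and in 6.97% of those of lower genes. For the calls that stood whichever array was left out these shares were 33% for higher and 11.3% for lower genes. Of the 19 monocyte and macrophage markers with an entry 15 had a ratio under 0.4. The promoters of the largest rise and the largest fall that have an entry are printed with every CG in capitals. Both have a ratio above 0.4.

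CD22, chr19:35328937-35329236, plus strand: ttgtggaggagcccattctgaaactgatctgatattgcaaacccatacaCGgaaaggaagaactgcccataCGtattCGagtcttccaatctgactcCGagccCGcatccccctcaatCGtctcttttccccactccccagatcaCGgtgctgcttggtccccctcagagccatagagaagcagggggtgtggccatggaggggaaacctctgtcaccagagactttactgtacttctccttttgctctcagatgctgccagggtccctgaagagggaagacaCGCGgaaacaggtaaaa

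LIAT1, chr17:410075-410374, plus strand: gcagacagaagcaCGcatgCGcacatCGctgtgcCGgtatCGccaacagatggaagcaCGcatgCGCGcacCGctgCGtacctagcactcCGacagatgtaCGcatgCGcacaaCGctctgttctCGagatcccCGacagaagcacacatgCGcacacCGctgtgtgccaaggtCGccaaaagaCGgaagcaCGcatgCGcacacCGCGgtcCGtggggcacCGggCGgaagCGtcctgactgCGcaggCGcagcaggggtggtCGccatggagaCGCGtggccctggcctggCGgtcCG

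CD22 has 9 CG dinucleotides, a GC content of 53% and a ratio of 0.43, and LIAT1 has 35, 65.7% and 1.08. The E-box CACGTG occurred in 9.1% of all promoters, 6.71% of those of higher genes and 15.1% of those of lower genes. Further motifs searched on both strands, with overlaps between motifs allowed, were the CRE TGACGTCA (2.72% of all promoters), CCAAT (36.2%), the TATA box TATAAA (8.19%) and the GC box GGGCGG (62.9%). In promoters of higher genes the CRE was in 1.85%, CCAAT in 32.2% and the GC box in 65%. For lower genes these shares were 3.85%, 32.2% and 73.3%. The TATA box was in 9.03% of promoters of higher genes and 4.81% of those of lower genes, and in 14.2% of those of genes higher by at least 2-fold.

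**Figure D4:**
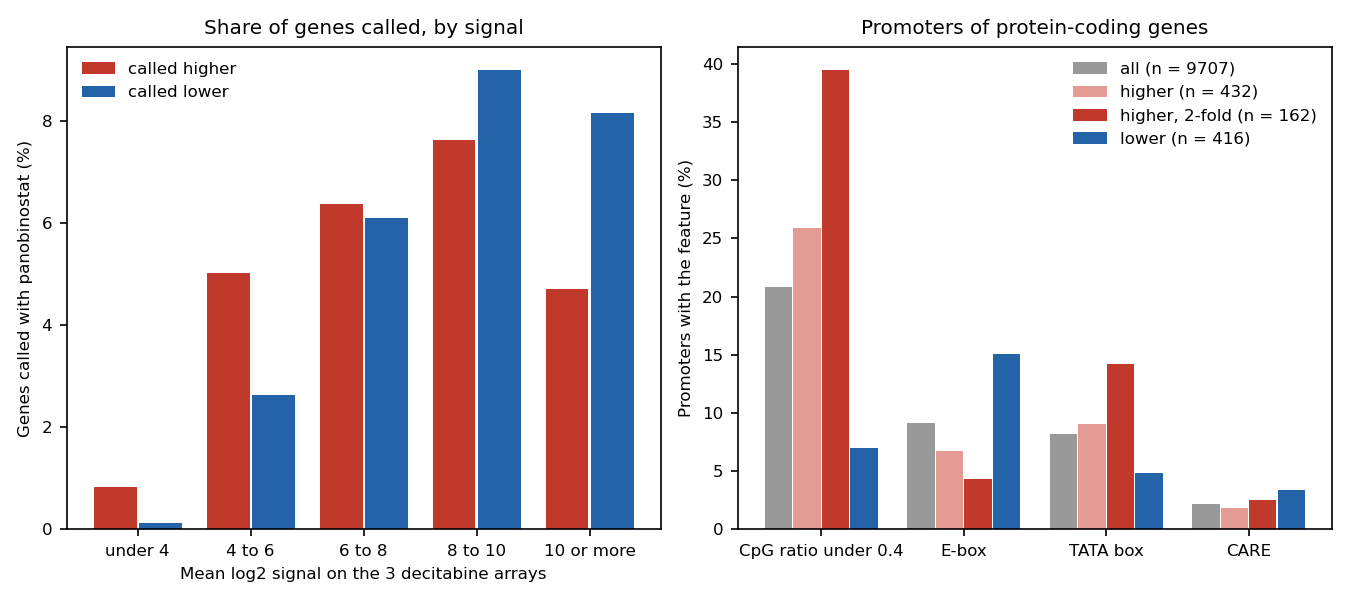
Left, percent of genes called higher (red) or lower (blue) with panobinostat in bins of mean log2 signal on the 3 decitabine arrays. Right, percent of RefSeq promoters with a CpG ratio under 0.4, an E-box, a TATA box or a CARE for all protein-coding genes and for those called higher, higher by at least 2-fold (a part of those higher) or lower; a CpG ratio under 0.4 runs from 6.97% of lower genes to 39.5% of those higher by 2-fold.

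A second reading of panobinostat came from cells that also had decitabine. Its means come from other arrays, but both sets of calls rest on 1 shared estimate of the spread over all 18 arrays. In decitabine plus panobinostat against decitabine, 1140 genes were higher (7.66%) and 1177 lower (7.91%). Of the 583 genes higher with panobinostat alone, 542 had a change of the same sign there, 359 were called higher and 5 lower. Of the 517 lower genes 497 had the same sign, 355 were called lower and 3 higher. These shared calls are 61.6% of the higher genes and 31.5% of the rises on decitabine, and 68.7% and 30.2% for the falls. Across the 14884 genes, which are not independent replicates, the 2 changes had a Pearson r of 0.617 and a Spearman rho of 0.494. They share no array, but all arrays were normalized together. CD22 (3.08), ADAM28 (2.88), REPS2 (2.42) and ROPN1L (2.42) rose there too, while FASN (-1.58), LIAT1 (-2.32), STAR (-1.90) and KAT2A (-1.34) fell. By list, 11 of the 17 synthetases and 24 of the 33 ribosome biogenesis genes were lower on decitabine. On decitabine 19 of 32 interferon genes were higher against 7 without it, 17 of 21 replication genes were lower against 2, and 13 of 24 nucleotide synthesis genes were lower against 3. The difference between these counts was not tested. Gene by gene, the test of the difference (the interaction, below) called 3 of the 32 interferon genes, 0 of the 21 replication genes and 1 of the 24 nucleotide synthesis genes.

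The change on decitabine minus the change without it, the interaction, was called for 93 genes (0.625%), 31 of them among the genes higher with panobinostat alone and 6 among the lower. The interaction shares the control and panobinostat arrays with the main comparison, so genes chosen as higher there lean to an interaction below 0, and lower ones to one above 0, and its sign in them is not read as a result. LGR5 rose by 1.43 on decitabine against 3.80 without it (interaction adjusted p = 0.0041), GLIPR1 by 0.87 against 2.95 (0.00462) and BMP2 had 0.56, not called, against 2.50 (0.00305). On decitabine CSF1R had a change of -0.40 (interaction adjusted p = 0.0151), CD86 of 0.19 (0.00992), VIM of 0.40 (0.00462) and TSPAN8 of -0.08 (0.00116), none of them called there. The mean on decitabine alone against that of the controls was 6.75 against 4.34 for CSF1R, 7.19 against 5.09 for CD86, 8.74 against 6.51 for VIM, 9.30 against 7.38 for GLIPR1, 6.28 against 4.10 for LGR5 and 6.69 against 5.96 for BMP2. For TSPAN8 it was 3.64 against 3.83 and for ASNS 6.74 against 7.79. No test of decitabine alone against control is reported here. The interaction of CSF1R lost its call without control 2 or control 3. ASNS was lower by 0.79 without decitabine and rose by 0.84 on it (0.00936). Without control 2 the number of genes was 50, without control 3 it was 46, and without decitabine 2, decitabine 3 or decitabine plus panobinostat 3 it was 61, 60 and 59. The scatter of both changes shows these genes away from the diagonal.

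**Figure D5:**
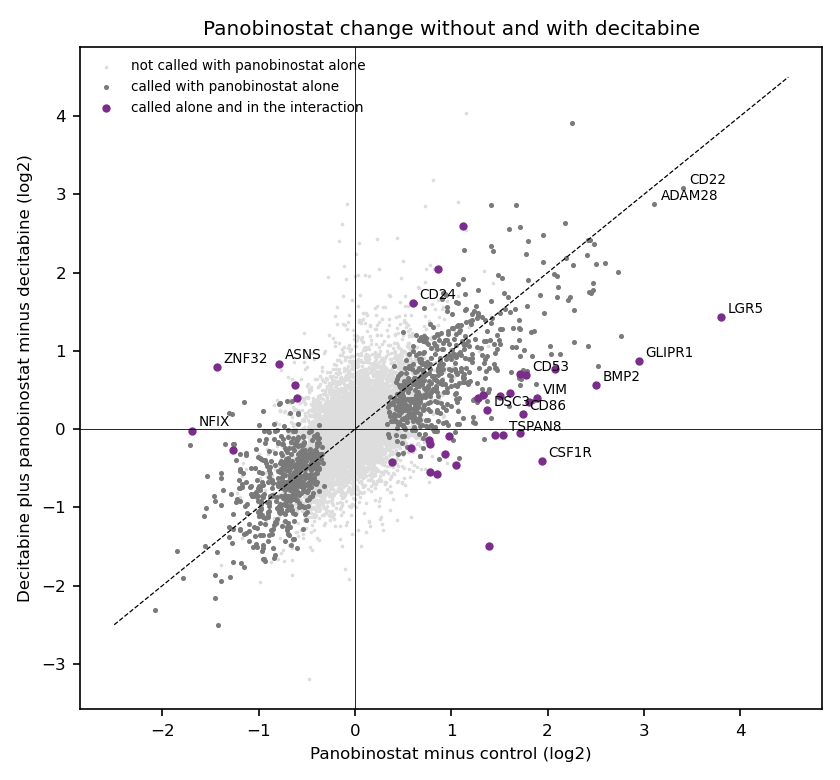
Log2 change with panobinostat alone (x axis) against the change with panobinostat on decitabine (y axis) for all 14884 genes; dark grey points were called with panobinostat alone, purple points were also called in the interaction, and the dashed line marks equal change. CD22 and ADAM28 lie near the line, and LGR5 (3.80 and 1.43), GLIPR1, BMP2 and CSF1R lie well below it.

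Panobinostat and valproic acid, a short-chain fatty acid that inhibits deacetylases, were given at label numbers 8 and 1, without units, so their doses cannot be taken as matched, and their arrays share the controls. Set against each other directly, 18 genes (0.121%) were called, 11 higher and 7 lower with panobinostat. CCL1 had a mean of 4.56 with valproic acid and was higher by 1.49 ± 0.20 with panobinostat (adjusted p = 0.00743). TSPAN8 was higher by 0.99 and DSC3 by 0.88, and ULBP1, a ligand of the NKG2D receptor that fell 2.4-fold against control, was lower by 1.04. These 4 kept their calls whichever array of the 2 groups was left out. C3, the central complement protein (1.83), CRLF2, a cytokine receptor (1.34), MILR1 (1.01), ATRIP (-1.22) and ASS1 (-1.20) were called too. These 5 lost the call without valproic acid 3, and all but CRLF2 also without at least 1 other array. Without valproic acid 3 the number called was 4, and without panobinostat 1 or panobinostat 3 it was 9. With limma fitted to the panobinostat and valproic acid arrays only, 0 genes were called, while 1391 had an unadjusted p under 0.05. The fit over all groups had 1349 at that unadjusted threshold. The single genes of this comparison were named after their values were seen.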

How the data were processed

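Total RNA of 6 groups with 3 samples each was hybridised to 18 arrays of the type Affymetrix Human Gene 2.0 ST, and 6 of these arrays form the comparison described. Per the submitters' processing notes, RMA was used to make the deposited log2 values. No RMA version is given in the sources used here. RMA brings all arrays to 1 distribution and compresses weak signals, so changes of low genes can be understated. Of 48226 probe sets, 16098 had 1 symbol in the array's annotation and 32128 had none. For the 779 genes with over 1 probe set, the one with the highest mean over all arrays was used. No array was left out, imputed or filtered.

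The tests used R 4.3.3 and limma 3.58.1, with 1 mean per group over the 18 arrays (12 residual degrees of freedom), with empirical Bayes moderation and Benjamini-Hochberg adjustment over 14884 genes; called means an adjusted p under 0.05. The script was tested on simulated data. Named are the 20 largest rises and 20 largest falls among called protein-coding genes with arrays that do not overlap, up to 6 called members of each of 41 gene lists by size of change, HDAC1 to HDAC11, MYC, and the measured responders to deacetylase inhibitors; other names were added after their values were seen. The members and lists were chosen with earlier results of these data known. The number of arrays limits the precision. No scan date or batch is in the labels. Promoter and miRNA sequences are RefSeq's, GRCh38.p14.

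The alternatives were a fit of the compared arrays only, a replicate block, a mean signal of at least 5, median centring, quantile normalization, the mean of a gene's probe sets, every probe set alone, a trended and robust fit, and each array left out.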

Additional observations from a re-analysis of the deposited data

Results flagged for a closer look

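Probe sets without a gene symbol were not part of the comparison, and 1162 of the 32128 (3.62%) were called with panobinostat against control, 725 higher and 437 lower. They are not named here.

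The effect of panobinostat differed with and without decitabine for 93 genes by the test of that difference. Among the genes named, the change on decitabine was smaller than alone for LGR5 (-2.37), GLIPR1 (-2.08), BMP2 (-1.94), CSF1R (-2.34), CD86 (-1.55), VIM (-1.49), TSPAN8 (-1.61), DSC3 (-1.13) and CD53 (-1.09). It was above that alone for NFIX (1.67), ZNF32 (2.23), CD24 (1.01), ASNS (1.63) and DHRS2 (2.89), all as log2 differences. Apart from DHRS2, these genes were named for calls on control and panobinostat arrays that the interaction also uses. Genes called higher there lean to a difference below 0, and lower ones to one above 0. In them the sign is not read as a result. With each of the 12 arrays of the 4 groups left out in turn, LGR5, GLIPR1, BMP2, CD86, VIM, TSPAN8, DSC3, ASNS and CD53 kept the call in 12 of 12. ZNF32 lost it without control 3 (adjusted p = 0.0511), and CSF1R without control 2 or control 3 (up to 0.0525). NFIX and CD24 kept it in 2 of the 12 settings and DHRS2 in 0, with adjusted p up to 0.0842, 0.0902 and 0.106 by limma and differences from 2.76 to 3.04 for DHRS2.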

How the results depend on the processing

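The number of genes called with panobinostat was 905 in the fit of the 6 compared arrays only, and ran from 1057 (quantile normalization) to 1261 (median centring) over the alternatives that keep all 18 arrays, within 1.5 times the 1100 reported. Leaving out 1 array at a time gave 659 to 854 genes, 403 to 453 higher, 256 to 401 lower, 210 to 220 higher by at least 2-fold and 70 to 114 lower by at least 2-fold; 504 of the 1100 were called in all 6 settings. The same step gave 1675 to 1861 genes for panobinostat on decitabine, 46 to 98 for the interaction and 4 to 15 against valproic acid. Against valproic acid the fit of the compared arrays only called 0 genes (1391 at an unadjusted p under 0.05). With 1 array left out, changes that were not called turned sign for HDAC3 (-0.012 to 0.182, below 0 without control 3), MICB (-0.095 to 0.014, above 0 without panobinostat 3), CD14 (-0.068 to 0.023, above 0 without control 2), EPCAM (-0.078 to 0.058, above 0 without control 2, control 3 or panobinostat 2), SLAMF8 (-0.218 to 0.106, above 0 without control 1) and CD84 (-0.012 to 0.376, below 0 without control 2). Same-numbered control and panobinostat arrays had correlations of their deviations from the group mean of 0.0656, 0.0426 and 0.0174, so the numbers were not taken as pairs; with the replicate number as a block 1104 genes were called, 584 higher and 520 lower, 2288 on decitabine, 98 in the interaction and 22 against valproic acid. The causes of these differences were not tested.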
